A study of Mus musculus with 8 samples.

Results

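Cartilage oligomeric matrix protein (*Comp*), the thrombospondins (*Thbs1* to *Thbs4*) and the matrilins (*Matn1* to *Matn4*) were examined in primary murine articular chondrocytes. The 9 genes were chosen by symbol, as family members, among the 54658 gene symbols of the deposited count table, and all 9 were among the 14404 genes tested. The chondrocytes were isolated by collagenase from the femoral head cartilage of wild-type mice at 3 weeks of age and grown in culture. One group of 4 samples received IL-1β, a proinflammatory cytokine linked to osteoarthritis (OA), at 1 ng/mL for 24 h, and the other group of 4 received vehicle. No strain or sex is given in the sources used here, and no label says whether the 4 samples of a group came from separate mice or cultures, so the p-values measure the spread between these samples, which may be technical. The study asked how IL-1β changes the chondrocyte transcriptome, and the comparison below puts that question to these matrix genes.

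Thrombospondins are secreted, calcium-binding glycoproteins that assemble into trimers (thrombospondins 1 and 2) or pentamers (thrombospondins 3 and 4 and COMP, also called thrombospondin 5). COMP and the matrilins are adaptor proteins of the cartilage matrix, where they connect collagen II and IX fibrils with one another and with aggrecan, and mutations in the human *COMP* and *MATN3* genes cause skeletal dysplasias. Fragments of COMP are released from cartilage and are measured in serum and synovial fluid as a marker of joint damage, and thrombospondin 1 binds cell surface receptors such as CD47 and can activate latent TGF-β.

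Total counts per sample lay between 10992355 and 17456063, at which 3 counts equal 0.172 to 0.273 counts-per-million units (CPM). CPM values below are scaled by the trimmed mean of M-values (TMM), with factors of 0.984 to 1.01, and means are given ± SD (n = 4). The noncoding RNA *Gm26917* took 13.2% to 14.6% of the counts of each sample. Each of 10 chondrocyte markers passed the filter, and their summed level was 5599.8 to 6070.2 CPM with IL-1β and 15157 to 15680.5 CPM with vehicle. The vehicle sum came mostly from *Col2a1* (mean 11228 CPM, against 2853 CPM with IL-1β). *Prg4* rose within the sum, from a mean of 859 CPM with vehicle to 2017 CPM with IL-1β. In bulk RNA, fewer cells of a type and less RNA per cell cannot be told apart.

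Promoter sequences from RefSeq (GRCm38.p6, from 250 bases before to 50 bases after a gene's start) were found for 6 of the 9 genes. *Matn1* and *Matn3* are shown because both fell with IL-1β, and *Thbs2* and *Thbs4* because they changed little. Capitals mark matches to the SOX motif ACAANG, the κB motif or the TATA motif TATAAA, each searched on both strands, as were the AP-1 motif TGANTCA and the C/EBP motif TTGCNNAA. The intervals are chr4:130944135-130944434 for *Matn1* and chr12:8947679-8947978 for *Matn3*, both on the plus strand, and chr17:14694213-14694512 for *Thbs2* and chr13:92794769-92795068 for *Thbs4*, both on the minus strand.
Matn1: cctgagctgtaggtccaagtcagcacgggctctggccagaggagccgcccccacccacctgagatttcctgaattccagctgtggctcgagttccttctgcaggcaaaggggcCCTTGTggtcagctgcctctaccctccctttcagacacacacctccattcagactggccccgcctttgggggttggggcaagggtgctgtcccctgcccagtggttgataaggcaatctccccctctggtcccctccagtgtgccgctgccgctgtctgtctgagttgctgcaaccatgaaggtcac
Matn3: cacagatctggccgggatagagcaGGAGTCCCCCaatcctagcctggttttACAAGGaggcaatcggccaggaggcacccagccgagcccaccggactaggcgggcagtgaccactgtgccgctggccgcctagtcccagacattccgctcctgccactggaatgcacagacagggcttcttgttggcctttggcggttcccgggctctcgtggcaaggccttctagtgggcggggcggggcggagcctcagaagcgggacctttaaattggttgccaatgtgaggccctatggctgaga
Thbs2: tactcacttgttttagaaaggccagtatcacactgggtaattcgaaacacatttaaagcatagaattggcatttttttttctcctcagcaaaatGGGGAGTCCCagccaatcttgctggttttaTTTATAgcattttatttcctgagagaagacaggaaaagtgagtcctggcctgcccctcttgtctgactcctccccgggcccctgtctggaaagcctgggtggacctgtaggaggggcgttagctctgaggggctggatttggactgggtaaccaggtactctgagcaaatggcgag
Thbs4: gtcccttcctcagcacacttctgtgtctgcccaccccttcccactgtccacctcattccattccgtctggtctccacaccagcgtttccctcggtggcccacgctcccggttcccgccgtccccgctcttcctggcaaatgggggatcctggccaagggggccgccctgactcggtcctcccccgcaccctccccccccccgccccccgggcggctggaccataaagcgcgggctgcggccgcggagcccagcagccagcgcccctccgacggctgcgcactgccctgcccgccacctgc

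With the gene's start as position 0, the SOX motif began at position -137 in *Matn1*, -199 in *Matn3* and -88 in *Thbs3*, on the strand opposite to the gene in *Matn1* and *Thbs3*. It matched 3 of the 7 promoters of these genes (*Matn4* has a pair of annotated starts), against 41.2% of all 32851 promoters in the table. The κB motif matched 3 of 7, against 8.46% of all promoters. It began at -226 in *Matn3* (strand opposite to the gene), -70 in *Matn4* (the gene's strand) and -156 in *Thbs2* (both strands). The TATA motif matched *Thbs2* alone, at -126 on the strand opposite to the gene, against 13.6% of all promoters. The AP-1 and C/EBP motifs matched 0 of 7, against 7.81% and 10.8%. A match describes the letters of the window and is not a binding site. The study centred on miR-146a-5p, whose seed pairs with AGTTCTC. These letters occurred in the 3′ UTR of 0 of the 9 genes and of 12.6% of the 11922 tested genes with an annotated 3′ UTR. Only the longest coding transcript was searched, and the paper's target prediction also took sites of other lengths. The 3′ UTRs of *Comp*, *Thbs4*, *Thbs3*, *Matn4*, *Matn2* and *Matn1* had 134 to 459 bases. Those of *Matn3*, *Thbs2* and *Thbs1* had 1453 to 2104, against a median of 1195. A shorter 3′ UTR offers fewer places for a match.

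IL-1β lowered most of the family. *Matn1*, *Comp*, *Matn3*, *Thbs1* and *Matn4* were downregulated by more than 2-fold, *Thbs3* and *Thbs2* fell by less, and *Thbs4* rose slightly. Only *Matn2* of the 9 did not pass the test. A differentially expressed gene (DEG) was taken as one with a log2 fold change beyond 1 in either direction and a Benjamini-Hochberg adjusted p under 0.05 in edgeR's quasi-likelihood test. By this rule 5 of the 9 genes were DEGs, against 5.21% of all genes tested, and all 5 were lower, against 2.35%. At an adjusted p under 0.05 with no limit on size, 8 of the 9 passed, against 40.2%, and 7 of these were lower, against 19.8%. The median log2 fold change was -1.12 over the 9 genes and -0.0012 over all genes tested. For 6 of the 9, the IL-1β samples were all lower than the lowest vehicle sample, against 18.2% of genes tested, and for 1 they were all higher than the highest, against 18.7%.

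**Figure D1:**
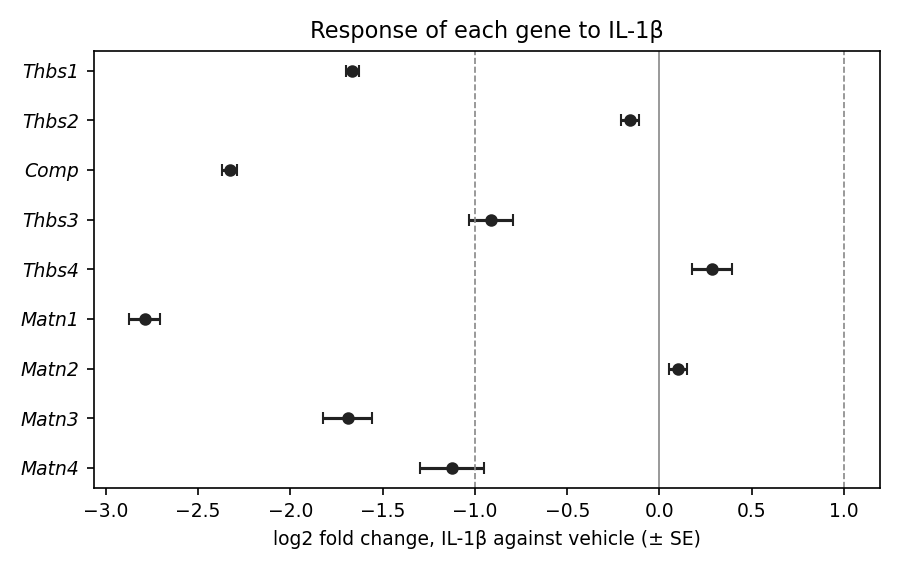
Log2 fold change of each gene (x axis, IL-1β against vehicle) with its standard error as bars, from edgeR. The dashed lines mark log2 fold changes of -1 and 1, and 5 of the 9 genes lie left of -1, with *Matn1* lowest at -2.79.

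Among the trimeric thrombospondins, *Thbs1* fell 3.17-fold while *Thbs2* moved little. *Thbs1* (ENSMUSG00000040152.8, GRCm38 chromosome 2, 118111876 to 118127133) encodes an inhibitor of angiogenesis and was the 16th most abundant of the tested genes in vehicle samples by CPM. Its level was 2571, 2695, 2746 and 2629 CPM in vehicle replicates 1 to 4 and 761, 857, 897 and 842 CPM in IL-1β replicates 1 to 4. The groups were far apart, and IL-1β replicate 1 was the lowest sample. The level with IL-1β was 31.6% of that with vehicle (log2 fold change -1.66 ± 0.036 (SE), edgeR adjusted p = 1.18e-24).

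*Thbs2* (ENSMUSG00000023885.9, chromosome 17, 14665500 to 14694235) encodes a close relative that also restrains angiogenesis and takes part in collagen fibril assembly. Its level was 49.7, 52.0, 51.9 and 54.1 CPM with vehicle and 40.8, 45.7, 48.3 and 49.9 CPM with IL-1β. The groups overlapped, because IL-1β replicate 4 lay just above vehicle replicate 1. *Thbs2* fell to 89.4% of its vehicle level (log2 fold change -0.16 ± 0.050 (SE), 95% interval by normal approximation -0.26 to -0.064, edgeR adjusted p = 0.0102). Without IL-1β replicate 1, the lowest sample for *Thbs2* as for *Thbs1*, the log2 fold change was -0.11 and the adjusted p 0.0536.

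**Figure D2:**
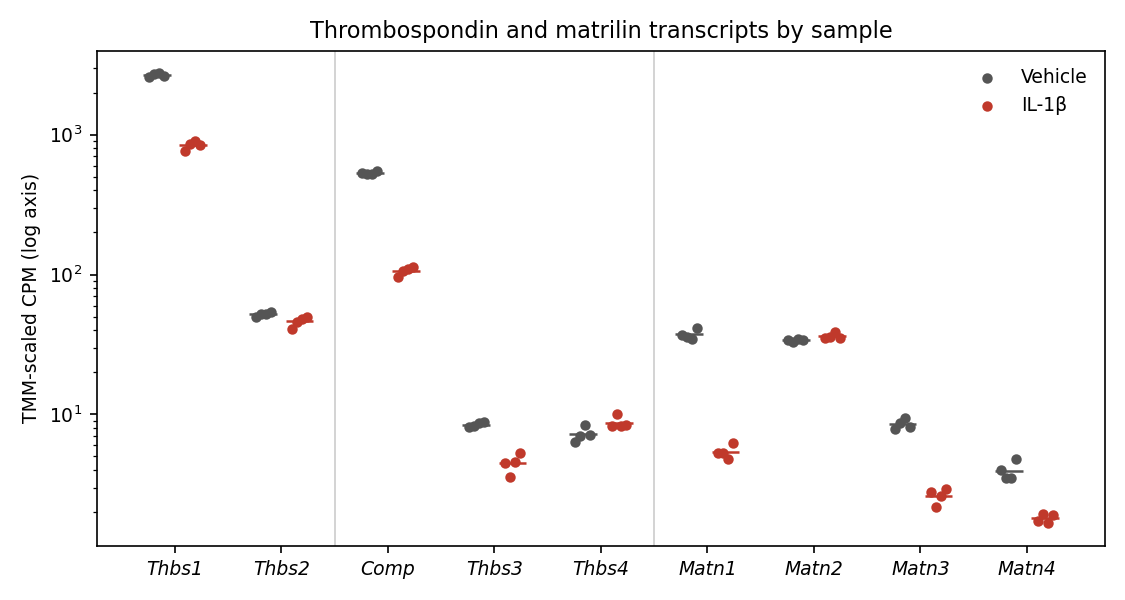
TMM-scaled CPM (y axis, log scale) of the 9 genes in each of the 4 vehicle samples (grey) and 4 IL-1β samples (red), with short lines at the group means. *Thbs1* and *Comp* stand above the rest in both groups, and the red points lie clear below the grey ones for 6 genes.

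In the pentameric branch, *Comp* fell 5.02-fold, *Thbs3* fell to 53.2% of its vehicle level, and *Thbs4* went the other way. *Comp* (ENSMUSG00000031849.9, chromosome 8, 70373558 to 70382066) measured 529, 525, 527 and 551 CPM in the vehicle samples and 95.7, 106, 109 and 112 CPM in the IL-1β samples. The groups were widely separated, and vehicle replicate 4 stood above the other three. Its log2 fold change was the 35th lowest of all genes tested (-2.33 ± 0.040 (SE), edgeR adjusted p = 3.02e-27).

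*Thbs3* (ENSMUSG00000028047.11, chromosome 3, 89215180 to 89226837) encodes a pentameric thrombospondin of developing skeletal tissue. It was read at 8.16, 8.23, 8.66 and 8.77 CPM with vehicle and at 4.52, 3.55, 4.59 and 5.26 CPM with IL-1β, from 121 to 142 and 49 to 77 counts. The groups did not overlap. *Thbs3* fell (log2 fold change -0.91 ± 0.12 (SE), edgeR adjusted p = 3.39e-07), short of the 2-fold limit for a DEG. Of its annotated exon bases, 6.59% are shared with *Mtx1* on the opposite strand, and no source used here says whether the counting used strand, so reads of these genes cannot be told apart there.

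*Thbs4* (ENSMUSG00000021702.7, chromosome 13, 92751590 to 92794818) encodes a pentameric thrombospondin abundant in tendon and muscle. Vehicle samples held 6.31, 7.01, 8.37 and 7.12 CPM and IL-1β samples 8.32, 9.98, 8.22 and 8.40 CPM. Vehicle replicate 3 lay among the IL-1β samples, and IL-1β replicate 2 stood above the other three. *Thbs4* rose by a log2 fold change of 0.28 ± 0.11 (SE) (95% interval by normal approximation 0.068 to 0.50, edgeR adjusted p = 0.0411). The adjusted p was 0.0881 with DESeq2, 0.0572 with a replicate block, and 0.0727 to 0.156 without IL-1β replicate 2 or vehicle replicate 1, 2 or 4.

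Whether family members responded differently was tested within samples, on the log2 ratio of the counts of 5 pairs of relatives. For each pair, the 4 IL-1β samples and the 4 vehicle samples did not overlap, which gives p = 0.0286 in a two-sided exact permutation test, the smallest value that 4 against 4 allows, and also 0.0286 after Benjamini-Hochberg adjustment over the 5 pairs. The log2 ratio of *Thbs1* to *Thbs2* went from 5.68 ± 0.052 with vehicle to 4.19 ± 0.072 with IL-1β, a difference of -1.49 ± 0.045 (SE). *Comp* to *Thbs3* went from 5.97 ± 0.039 to 4.56 ± 0.23, a difference of -1.41 ± 0.12. *Comp* to *Thbs4* showed the largest shift of the 5, from 6.21 ± 0.17 to 3.60 ± 0.16, a difference of -2.61 ± 0.12. Thus *Comp* fell relative to both pentameric relatives, of which *Thbs3* also fell and *Thbs4* did not. Among the matrilins, *Matn1* to *Matn3* moved from 2.13 ± 0.20 to 1.03 ± 0.19, a difference of -1.10 ± 0.14. *Matn2* to *Matn4* moved upward, from 3.10 ± 0.21 to 4.29 ± 0.16, a difference of 1.19 ± 0.13.

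**Figure D3:**
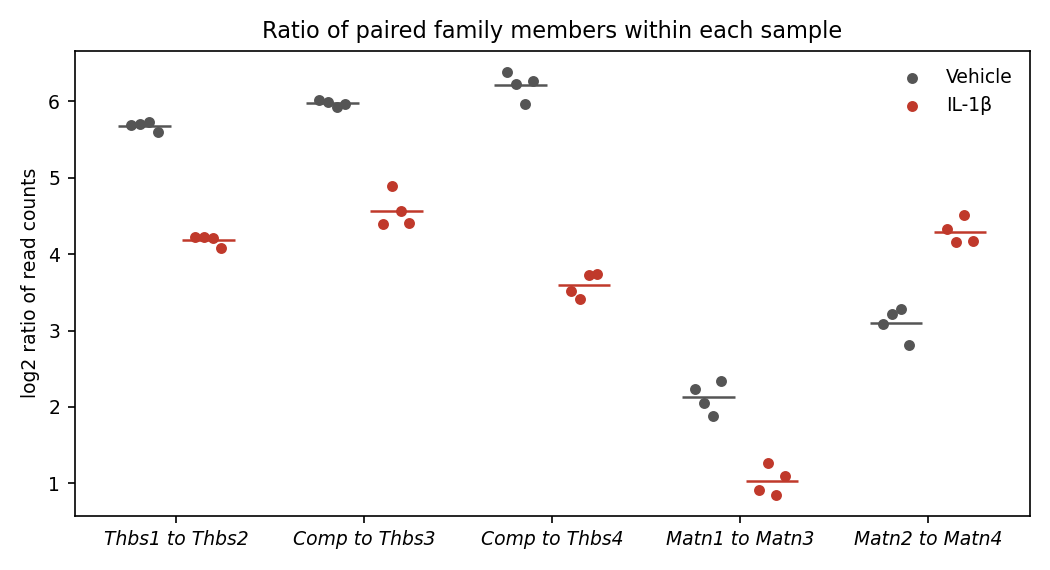
Log2 ratio of read counts (y axis) of 5 pairs of relatives in each vehicle (grey) and IL-1β (red) sample, with lines at group means. The red points lie below the grey ones for 4 pairs and above them for *Matn2* to *Matn4*.

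The matrilins split into 3 genes that fell and 1 that did not pass the test. *Matn1* (ENSMUSG00000040533.7, chromosome 4, 130944385 to 130955475) encodes matrilin 1, the classical cartilage matrix protein. Its level was 37.2, 35.9, 34.8 and 41.3 CPM with vehicle and 5.33, 5.28, 4.77 and 6.26 CPM with IL-1β. No IL-1β sample came near a vehicle sample. *Matn1* fell 6.91-fold (log2 fold change -2.79 ± 0.084 (SE), edgeR adjusted p = 2.64e-21), the 18th lowest log2 fold change of all genes tested.

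*Matn3* (ENSMUSG00000020583.4, chromosome 12, 8947929 to 8972028) encodes matrilin 3, which is found largely in cartilage and forms mixed oligomers with matrilin 1. It was measured at 7.87, 8.64, 9.37 and 8.11 CPM with vehicle and at 2.80, 2.17, 2.62 and 2.92 CPM with IL-1β. All IL-1β samples were lower, and *Matn3* fell to 31.0% of vehicle (log2 fold change -1.69 ± 0.13 (SE), edgeR adjusted p = 1.07e-11).

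*Matn4* (ENSMUSG00000016995.17, chromosome 2, 164389393 to 164405160) was the least abundant of the 9 genes. It had 69, 61, 49 and 73 counts with vehicle and 19, 27, 28 and 27 counts with IL-1β, or 3.99, 3.54, 3.51 and 4.81 CPM and 1.72, 1.95, 1.67 and 1.92 CPM. The groups were separate, and *Matn4* fell 2.18-fold (log2 fold change -1.12 ± 0.17 (SE), edgeR adjusted p = 4.68e-06). When glmTreat asked for a log2 fold change beyond 1, it was no longer called (adjusted p = 1.00). Of its exon bases, 2.88% are shared with *Rbpjl* on the opposite strand. *Thbs1* likewise shares 3.4% of its exon bases with *Gm29233*, and *Matn2* 1.12% with *9430069I07Rik*, each on the opposite strand.

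*Matn2* (ENSMUSG00000022324.15, chromosome 15, 34306677 to 34436273) encodes a matrilin of many connective tissues beyond cartilage. Vehicle samples measured 34.2, 33.0, 34.3 and 33.8 CPM and IL-1β samples 35.3, 35.5, 38.6 and 35.3 CPM. The lowest IL-1β sample exceeded the highest vehicle sample, though by little in 3 of the 4. The log2 fold change of 0.10 ± 0.049 (SE) did not pass the test (95% interval by normal approximation 0.0036 to 0.19, edgeR adjusted p = 0.111). The unadjusted edgeR p was 0.0519, so this approximate interval is slightly narrower than the test implies.

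The leading relative changed among the matrilins, while *Comp* and *Thbs1* led their branches in both groups. Levels were compared between genes as RPKM, the CPM divided by the length in kilobases that was deposited beside the counts. The pentameric transcripts summed to 184 ± 4.17 with vehicle and 39.2 ± 2.48 with IL-1β on this scale. *Comp* made up 97.9% ± 0.17 of that sum with vehicle and 90.9% ± 0.55 with IL-1β, while the share of *Thbs4* was 1.19% ± 0.15 and 6.78% ± 0.73. The matrilin transcripts summed to 27.6 ± 1.41 and 9.70 ± 0.30. *Matn1* held 67.4% ± 1.82 of the matrilin sum with vehicle and 27.9% ± 2.65 with IL-1β, and *Matn2* held 19.6% ± 1.01 and 59.5% ± 3.11. *Matn2* thus took the place of *Matn1* as the leading matrilin without a change of its own that passed the test. In the trimeric branch *Thbs1* led with 98.3% ± 0.060 and 95.4% ± 0.22.

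**Figure D4:**
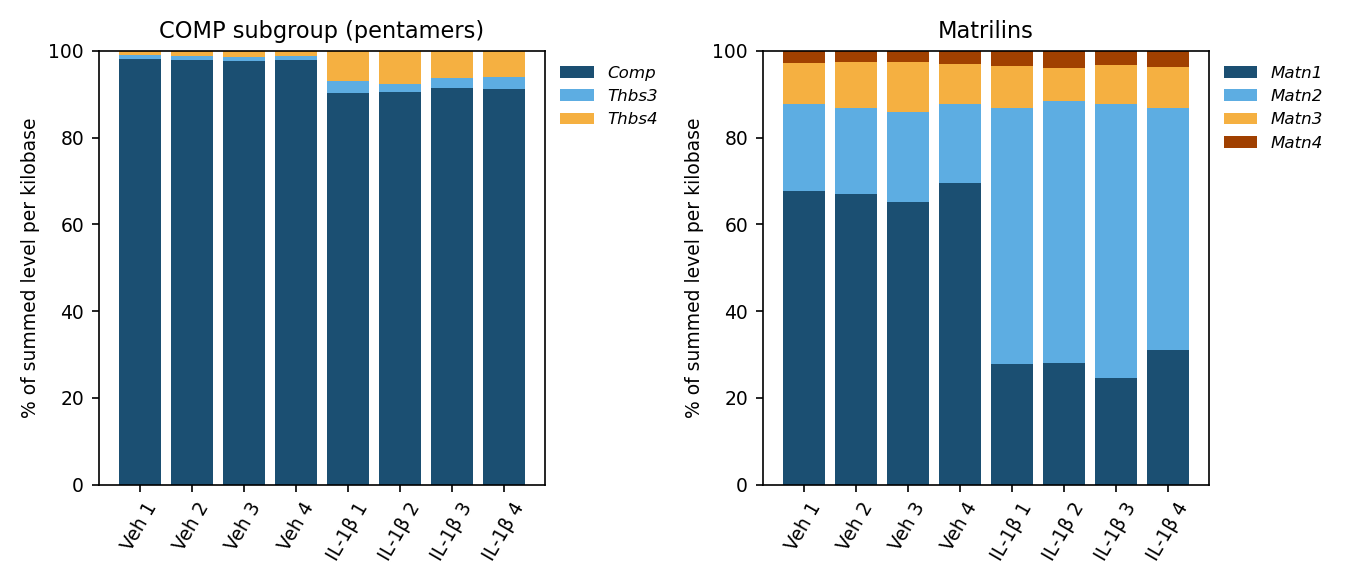
Share (y axis, % of summed RPKM) of each transcript in the pentameric branch (left) and the matrilins (right), as 1 stacked bar for each of the 8 samples. *Comp* fills 90.3% to 98.0% of every left bar, and *Matn2* exceeds *Matn1* in the 4 IL-1β bars of the right panel only.

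Over all 9 genes, the order per length with vehicle was *Thbs1* (438 ± 12.6), *Comp* (180 ± 4.15), *Matn1* (18.6 ± 1.43), *Thbs2* (7.42 ± 0.25), *Matn2* (5.41 ± 0.094), *Matn3* (2.82 ± 0.22), *Thbs4* (2.19 ± 0.26), *Thbs3* (1.75 ± 0.063) and *Matn4* (0.766 ± 0.12), and no neighbours in this order overlapped between samples. With IL-1β the order was *Thbs1* (138 ± 9.42), *Comp* (35.7 ± 2.42), *Thbs2* (6.59 ± 0.57), *Matn2* (5.77 ± 0.26), *Matn1* (2.70 ± 0.31), *Thbs4* (2.65 ± 0.26), *Thbs3* (0.929 ± 0.15), *Matn3* (0.872 ± 0.11) and *Matn4* (0.351 ± 0.028). Here *Thbs2* and *Matn2*, *Matn1* and *Thbs4*, and *Thbs3* and *Matn3* overlapped. *Thbs1* and *Comp* thus led in both groups, and *Matn1* ranked 3 with vehicle and 5 with IL-1β. With the longest coding transcript as the length, *Matn1* ranked 6 with IL-1β, just under *Thbs4* and overlapping it, *Thbs3* stood above *Thbs4* with vehicle, also with overlap, *Matn2* stood above *Thbs2* in both groups, and *Matn1* held 57.0% and 18.7% of the matrilin sum.

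Partners of the family were followed as lists. Of 14 tested matrix partners of COMP and the matrilins, 6 were lower DEGs, against 2.35% of all genes tested, and 1 was a higher DEG, against 2.86%, with a median log2 fold change of -0.87. The largest changes of this list were those of *Acan* (aggrecan, the main cartilage proteoglycan), which fell from 1286 ± 35.9 to 248 ± 12.0 CPM (log2 fold change -2.37), *Fmod* (fibromodulin, a collagen-binding proteoglycan; -2.09), *Col2a1* (the chain of collagen II; -1.98) and *Col9a1* (a chain of collagen IX; -1.88). *Dcn*, which encodes the collagen-binding proteoglycan decorin, rose from 265 ± 10.5 to 758 ± 4.12 CPM. Of the SOX trio, transcription factors that activate cartilage genes, *Sox9* fell from 568 ± 5.24 to 220 ± 12.7 CPM (log2 fold change -1.37). It was the 1 lower DEG of 3 tested, against 2.35% of all genes. *Sox6* (-0.44) and *Sox5* (-0.11) also fell, by less than 2-fold. All 3 were lower at an adjusted p under 0.05, against 19.8%.

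Of the 14 listed proteases known to cleave these proteins, 8 were tested and 3 were DEGs, all of them higher, against 2.86% of all genes. At an adjusted p under 0.05, 5 were higher, against 20.4%, and 3 were lower, against 19.8%. *Mmp3* (stromelysin 1) rose from 23.6 ± 1.48 to 1058 ± 69.3 CPM (log2 fold change 5.48), *Mmp13* (collagenase 3) from 32.2 ± 2.11 to 212 ± 4.96 CPM (2.71), and *Adamts7*, a metalloproteinase that degrades COMP, from 0.516 ± 0.083 to 3.40 ± 0.56 CPM (2.68). *Adamts7* passed the filter only through its IL-1β samples, so its place among the tested genes already leaned toward a higher call. The 3 lower genes were *Adamts1* (log2 fold change -0.70), *Htra1* (-0.34) and *Adamts12*, a relative of *Adamts7* (-0.49, edgeR adjusted p = 0.0446). No counts were found for *Mmp1a*, *Elane* and *Plg*.

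Receptors and surface partners of thrombospondins showed no common direction, with 1 lower and 1 higher DEG among 14 tested, against 2.35% and 2.86% of all genes, and a median log2 fold change of -0.0087. *Itga6*, the integrin α6 chain, fell from 170 ± 4.76 to 79.7 ± 4.13 CPM (log2 fold change -1.09), and *Sdc4*, the heparan sulfate proteoglycan syndecan 4, rose from 485 ± 11.8 to 1109 ± 24.7 CPM (1.19). *Cd47*, the thrombospondin 1 receptor named above, rose from 125 ± 2.81 to 228 ± 6.30 CPM (0.87, edgeR adjusted p = 1.74e-19), short of the limit for a DEG. *Cd36*, another receptor of thrombospondin 1, did not pass the filter, with at most 2 counts in a sample. Of 9 endoplasmic reticulum chaperones that accompany COMP or matrilins in secretion, 8 were lower at an adjusted p under 0.05, against 19.8% of all genes, and 1 was higher, against 20.4%, each by less than 2-fold. The most abundant of them were *Serpinh1* (a collagen chaperone; log2 fold change -0.64) and *Hspa5* (the chaperone BiP; -0.44). Of 5 genes listed as enzymes that modify thrombospondin type 1 repeats, or as their relatives, 1 was a DEG, against 5.21% of all genes. It was the C-mannosyltransferase gene *Dpy19l1* (from 47.1 ± 2.55 to 105 ± 5.05 CPM, log2 fold change 1.15). At an adjusted p under 0.05, 4 of the 5 were higher, against 20.4%, with *B3glct* at 0.41, *Dpy19l3* at 0.32 and *Dpy19l4* at 0.15 on the log2 scale, and 1 was lower, the O-fucosyltransferase gene *Pofut2* (-0.27). Of 7 TGF-β ligand and latent binding protein genes, 1 was a DEG, against 5.21%, namely *Ltbp2*, which rose from 39.0 ± 0.72 to 165 ± 5.64 CPM (2.08), while the more abundant *Ltbp3* (-0.42) and *Ltbp1* (-0.97) fell by less than 2-fold. At an adjusted p under 0.05, 5 of the 7 were lower, against 19.8%, and 2 higher, against 20.4%.

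**Figure D5:**
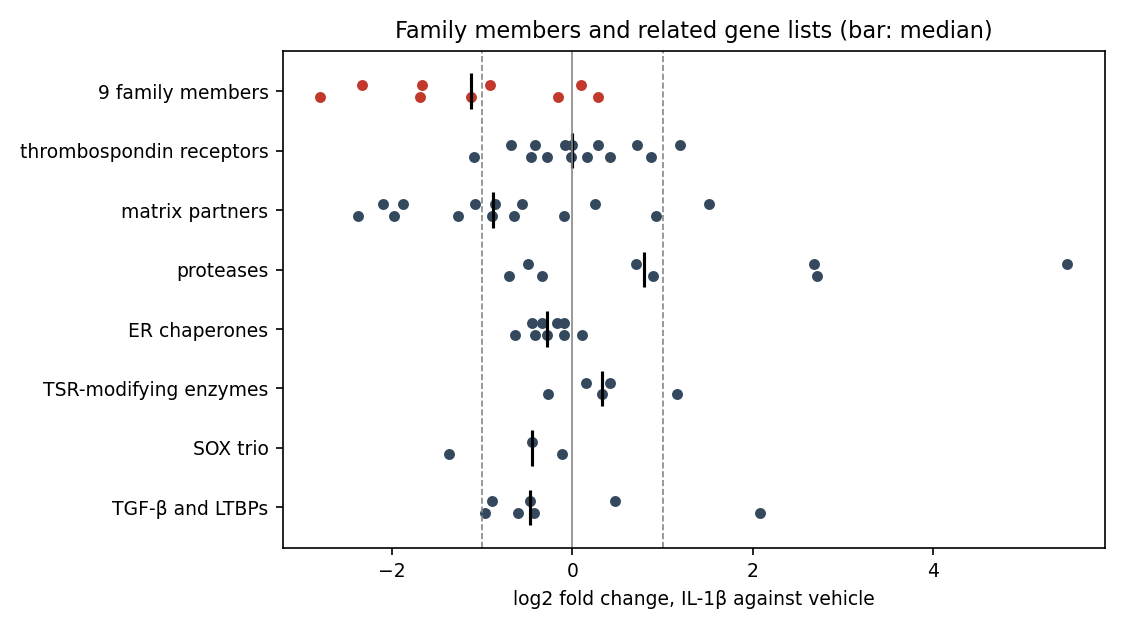
Log2 fold change (x axis, IL-1β against vehicle) of the 9 family members (red) and of the tested genes of 7 related lists (dark), with a black bar at each median and dashed lines at -1 and 1. The members and the matrix partners have medians of -1.12 and -0.87, and the proteases a median of 0.80 with *Mmp3* farthest right at 5.48.

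Markers of other cell types moved in part with these results. The chondrocyte list, whose summed level is given above, held 9 lower DEGs, against 2.35% of all genes tested. *Prg4* (lubricin, a surface zone product) was its 1 higher DEG, against 2.86%. Of the 9, *Ucma* passed the filter only through its vehicle samples (2.93 CPM, against 0.611 CPM with IL-1β). The 6 osteoblast and hypertrophic markers summed to 186 to 197 CPM with vehicle and 37.5 to 44.9 CPM with IL-1β. Of these, 4 were tested and all 4 were lower DEGs, against 2.35%. The 6 macrophage and leukocyte markers summed to 13.1 to 14.7 and 28.5 to 32.3 CPM, mostly from *Cd68* and *Cd14*. Of these 2 tested genes, *Cd14* was a higher DEG (log2 fold change 1.86), against 2.86%. *Ptprc* (0.107 ± 0.094 and 0.149 ± 0.19 CPM), *Csf1r*, *Adgre1* and *Itgam* were under the filter. The 5 fibroblast markers summed to 37.8 to 40.5 and 57.1 to 61.0 CPM, with *Thy1*, *Dpt* and *Pi16* under the filter. The 5 smooth muscle and pericyte markers summed to 797 to 869 and 391 to 441 CPM, mostly from *Cspg4*, with *Myh11* under the filter. The 4 tendon markers, of interest beside *Thbs4*, summed to 36.1 to 39.0 and 36.8 to 40.3 CPM. Of these, *Scx* and *Mkx* were tested and did not pass (edgeR adjusted p = 0.0734 and 0.0600), and the defining marker *Tnmd* was at 0.193 ± 0.15 and 0.163 ± 0.11 CPM. Endothelial, skeletal muscle, and erythroid and platelet markers summed to at most 2.84 CPM in any sample. The part of these cell types in the results was not tested.

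Over the 8 samples, the genes with a pattern most like that of *Comp*, by Pearson's r of log2(CPM + 1), were *Acan*, *Gdf10* (a growth factor of the TGF-β superfamily) and *Penk* (proenkephalin), with r of 0.9998 for each, and 246 of 14403 genes had an r over 0.99. For *Thbs1* they were *Sox9* (0.9994), *Ckb* (brain-type creatine kinase; 0.9991) and *Twsg1* (a BMP-binding protein; 0.9990), and 223 genes had an r over 0.99. All these values come from the same 8 libraries, which form 2 treatment groups, and the correlations mostly describe the difference between these groups.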

How the data were processed

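RNA-Seq covered 4 IL-1β-treated and 4 vehicle-treated samples of murine articular chondrocytes, grouped by the treatment in their labels. The authors used cutadapt for trimming and STAR for alignment to mm10, annotated by GENCODE vM20, and deposited whole-number counts per gene from featureCounts. The STAR version was 2.4.2a in the submitters' processing notes and 2.5.4 in the paper's methods. Whether the deposited counts precede the authors' RUVseq batch correction is not stated. They also deposited a gene length column (unit: other), which equals the annotated exon bases of each of the 9 genes and was used for levels per length.

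After TMM scaling, treatment was tested as the single term of edgeR's quasi-likelihood model (R 4.3.3, edgeR 4.0.16 and limma 3.58.1) in 14404 genes that exceeded 1 CPM in 4 or more samples, with Benjamini-Hochberg adjustment over all of them. Prior degrees of freedom were 20.9. Ratios of counts (0.5 added) were compared by exact permutation. Totals of 10992355 to 17456063 counts set the precision, and a limit of 3 counts reflects counting error only, because reads counted by position alone need not be independent molecules. Positions, overlaps and 3′ UTRs came from GENCODE vM21 and promoters from RefSeq. Python 3.11.15, scipy 1.17.1 and matplotlib 3.10.9 were used. The code was tested on simulated data.

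All 9 members are described. From each related list, up to 4 DEGs with the largest log2 fold change are named, or the 2 genes with the highest CPM where fewer than 2 were DEGs, and further genes were named after their values were seen. Members and lists were chosen with earlier results of these data known. Alternatives were DESeq2 1.42.0, other scalings, filters, thresholds and lengths, glmTreat, a replicate block, and each sample left out.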

Additional observations from a re-analysis of the deposited data

Results flagged for a closer look

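Within each group of 4, the highest and lowest samples were set against the rest by Dixon's gap-to-range ratio (95% level), for the CPM of the 9 genes and the log2 ratio of 5 pairs and the total counts, 30 groups in all. Chance alone flags about 1 in 20 such groups, or 1.5 of 30, and 4 stood apart. *Comp* in vehicle replicate 4 was at 551 CPM, against 525 to 529 CPM in the other vehicle samples. *Thbs4* in IL-1β replicate 2 was at 9.98 CPM, against 8.22 to 8.40 CPM. *Matn2* in IL-1β replicate 3 was at 38.6 CPM, against 35.3 to 35.5 CPM. The log2 ratio of *Thbs1* to *Thbs2* in IL-1β replicate 4 was 4.08, against 4.21 to 4.23. No sample stood apart in more than 1 of these 4 measures.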

How the results depend on the processing

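Of 144 alternative log2 fold changes of the 9 genes, 0 changed direction and 132 stayed on their side of each threshold. The exceptions were, under glmTreat, which tests for a log2 fold change beyond 1, *Matn4* (-1.12, no longer a DEG), *Thbs3* (-0.91), *Thbs2* (-0.16) and *Thbs4* (0.28), each at an adjusted p of 1.00, *Thbs2* without IL-1β replicate 1 (range over left-out samples -0.20 to -0.11) and *Thbs4* also under DESeq2 (0.28), with no filter (0.28, adjusted p = 0.0653), with the replicate block (0.28) and without 1 of 4 samples (0.22 to 0.28, within a range of 0.22 to 0.35 over all left-out samples). The 5 DEGs of the family stayed 5 under every alternative except glmTreat (4) and a log2 fold change beyond 2 (2, *Comp* and *Matn1*). Over all genes the count of 751 became 1206 with no filter, 437 under glmTreat and 183 beyond a log2 fold change of 2. Same-numbered samples did not deviate together (mean correlation -0.023, and 1 of 8 samples correlated best with its own number), so the numbers were not read as pairs. The replicate block left 751 DEGs, 745 of them shared, and among the 9 genes it ended only the passing of *Thbs4*. For the 5 ratios a paired exact test with the replicate block cannot go below p = 0.125, and leaving out 1 sample cannot go below 0.0571, so neither could pass. Their differences with the block were -1.49, -1.41, -2.61, -1.10 and 1.19 in the order given. Without 1 sample they ranged from -1.52 to -1.46 for *Thbs1* to *Thbs2*, -1.52 to -1.35 for *Comp* to *Thbs3*, -2.69 to -2.55 for *Comp* to *Thbs4*, -1.18 to -1.02 for *Matn1* to *Matn3* and 1.10 to 1.25 for *Matn2* to *Matn4*. Leaving out *Gm26917* and *Rn7sk*, chosen after seeing the data, gave 792 DEGs. The longest coding transcript as length, also chosen then, put *Matn2* at 29.0% and 69.8% of the matrilin sum. The cause of these differences was not tested. *Matn4*, at 19 to 73 counts, had the widest error of the 9.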
